A study of Mus musculus with 18 samples.

Results

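A set of 8 sarcomeric myosin heavy chain genes of the mouse, Myh1, Myh2, Myh3, Myh4, Myh6, Myh7, Myh7b and Myh8, was taken by symbol from a table of raw RNA-seq counts of 55450 genes. Myh13, a further heavy chain gene of the chromosome 11 cluster, was not in the set and is described with that cluster below. All 8 passed the filter on low counts, as did 17912 genes in all. The RNA came from C2C12, an immortal mouse myoblast line that withdraws from the cell cycle and fuses into myotubes when serum is lowered. Control cells and a pair of edited clones were compared to ask how the dosage of noncoding RNAs of the Dlk1-Dio3 cluster bears on muscle cell state and differentiation. The control was a sorted population that had received the pX458 vector, which carries Cas9 and EGFP, without guides. Clone 2-4, labelled a Dlk1-Dio3 overexpressor, and clone 2-7, labelled a Dlk1-Dio3 knockout, were grown from single cells after Cas9 and pairs of guides had cut in the proximal promoter region of Meg3. Each line was sampled as myoblasts in growth medium and as myotubes on day 3 in horse serum, with libraries A, B and C in each of the 6 groups.

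Each edited genotype was 1 clone while the control was a population, so genotype and clone cannot be told apart. The labels do not say that A, B and C were separate cultures, so p-values measure the spread between these samples. Library totals ran from 41544358 to 79140702 counts. Meg3 had 0 counts in every control library and every clone 2-7 library and 5222 to 7763 in clone 2-4, and Mirg followed the same pattern with 474 to 839 counts in clone 2-4. Rian had 8206 to 13241 counts in clone 2-4 and at most 1 in the control. In clone 2-7 it had 0 counts in the myoblasts and 1 to 4 in the myotubes, against 0 in every control myotube library, a difference called higher (edgeR, adjusted p 0.0217), which goes against the knockout label, though on very few counts. The directions given for clone 2-7 therefore rest on the label and are those of the libraries labelled knockout. Clone 2-4 myotube library C stood apart from A and B (chi-square per degree of freedom over genes of 118 and 112, against 22.8 between A and B), and of the heavy chain results it changed the call of Myh7 alone when left out, given below. Clone 2-4 myoblast library B stood apart less (37.3 from A, against 8.46 between A and C); without it the Myh7b call in myoblasts was lost (adjusted p 0.128) and the uncalled Myh3 difference from the control turned from -0.15 to 0.0041. Skeletal muscle identity genes were present in all 6 groups, with summed CPM (counts scaled to a common library size) of 1294 to 1499 in control myoblasts and 9928 to 11179 in control myotubes. Their sums were higher in the clones, at 2593 to 3278 CPM in clone 2-4 myoblasts and 8856 to 10752.5 in clone 2-7 myoblasts. In myotubes they were 16772 to 20327 CPM in clone 2-4 and 27138 to 34543 in clone 2-7. Their part in the heavy chain differences was not tested. The endothelial markers summed to at most 0.669 CPM. Osteoblast markers summed to 71.5 to 74.4 CPM in control myotubes, 26.2 to 28.2 in clone 2-4 and 11.4 to 15.2 in clone 2-7, and adipocyte markers to at most 19.7 CPM in any library. The smooth muscle markers, which immature muscle cells also express, summed to 4264 to 4402 CPM in control myoblasts, 1544 to 1846 in clone 2-4 myoblasts and 7465 to 7704 in clone 2-7 myoblasts. They summed to 1951 to 2322 CPM in control myotubes, 4954 to 6285 in clone 2-4 myotubes and 7488 to 8604 in clone 2-7 myotubes, and their part in the heavy chain differences was not tested. In bulk RNA, fewer cells of a type and less RNA per cell cannot be told apart.

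Myosin heavy chain is the motor of the thick filament: its head binds actin and splits ATP, and its rod packs into the filament. Which isoform a fibre uses sets how fast it shortens. Developing and regenerating muscle uses the embryonic (Myh3) and neonatal (Myh8) isoforms before adult fast (Myh2 for type IIa, Myh1 for type IIx, Myh4 for type IIb) or slow (Myh7) isoforms take over. Myh7 is also the beta isoform of the heart and Myh6 the alpha isoform, and Myh7b is a diverged relative that hosts a muscle microRNA.

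The developmental and fast genes lie in 1 cluster on chromosome 11 in the order Myh3, Myh2, Myh1, Myh4, Myh8, all on the plus strand (GRCm38, GENCODE M21). Myh3 spans chr11:67078300-67102291, Myh2 chr11:67171027-67197517, Myh1 chr11:67200052-67224575, Myh4 chr11:67238029-67260446 and Myh8 chr11:67277124-67308634. Myh6 (chr14:54941921-54966927) and Myh7 (chr14:54970684-54994626) are neighbours on the minus strand of chromosome 14, and Myh7b (chr2:155611212-155634307) lies on the plus strand of chromosome 2. The bases upstream of the 5 cluster genes are shown because all 5 are skeletal isoforms whose RNA rose on differentiation, while the fast and neonatal genes share stretches that Myh3 lacks. They are the RefSeq bases before the annotated starts (GRCm38.p6, plus strand), at chr11:67078050-67078299 for Myh3, chr11:67276874-67277123 for Myh8, chr11:67170777-67171026 for Myh2, chr11:67199852-67200051 for Myh1 and chr11:67237562-67237811 for Myh4. Capitals mark TATA matches and stretches of at least 12 bases that 3 or more of the 8 members share; longer runs shared by a single pair of members are not marked.
Myh3: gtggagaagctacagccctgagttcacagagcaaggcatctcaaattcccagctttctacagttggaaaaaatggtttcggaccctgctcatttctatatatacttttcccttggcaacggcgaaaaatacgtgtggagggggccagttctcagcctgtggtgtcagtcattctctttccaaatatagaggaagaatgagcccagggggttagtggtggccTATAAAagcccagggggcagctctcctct
Myh8: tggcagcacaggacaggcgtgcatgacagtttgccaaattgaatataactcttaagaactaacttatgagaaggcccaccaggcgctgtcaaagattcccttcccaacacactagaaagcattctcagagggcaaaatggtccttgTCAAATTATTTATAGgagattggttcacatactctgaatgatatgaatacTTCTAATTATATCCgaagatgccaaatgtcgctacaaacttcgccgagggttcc
Myh2: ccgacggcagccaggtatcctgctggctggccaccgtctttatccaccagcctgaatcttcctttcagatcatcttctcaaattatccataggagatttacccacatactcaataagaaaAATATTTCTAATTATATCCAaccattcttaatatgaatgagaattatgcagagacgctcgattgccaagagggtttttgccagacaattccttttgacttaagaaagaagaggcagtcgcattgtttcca
Myh1: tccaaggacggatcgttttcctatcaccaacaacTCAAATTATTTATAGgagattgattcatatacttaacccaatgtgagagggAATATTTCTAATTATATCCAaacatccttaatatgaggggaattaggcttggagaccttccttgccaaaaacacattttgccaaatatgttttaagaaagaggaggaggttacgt
Myh4: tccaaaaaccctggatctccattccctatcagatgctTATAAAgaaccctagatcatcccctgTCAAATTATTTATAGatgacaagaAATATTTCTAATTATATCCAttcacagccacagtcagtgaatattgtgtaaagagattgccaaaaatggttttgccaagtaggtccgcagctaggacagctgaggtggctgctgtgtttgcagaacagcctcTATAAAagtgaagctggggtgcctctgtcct

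The 14-base stretch TTCTAATTATATCC stood upstream of Myh8, Myh2, Myh1 and Myh4, the 4 genes that held it of 27025 genes with a RefSeq window of 250 bases. In Myh2, Myh1 and Myh4 it was part of a longer shared run of 20 bases, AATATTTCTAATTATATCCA. A further 15-base stretch, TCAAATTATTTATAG, was shared by Myh8, Myh1 and Myh4 and contains a match to the MEF2 motif, which 3.01% of all windows hold on either strand. A TATA match (TATAAA, forward strand, 8.12% of windows) started 29 bases before the RefSeq start of Myh3, 32 before that of Myh1 and 31 before that of Myh4. The Myh1 match lies downstream of the bases printed, which stop at an earlier GENCODE start. Of the other motifs searched on both strands, the E-box CANNTG was found before the RefSeq starts of all members other than Myh2 and Myh1 (66.0% of all windows), and MCAT (CATTCC, 12.6%) before those of Myh1, Myh4, Myh7 and Myh6. The Myh1 MCAT match also lies past the earlier GENCODE start. The whole Myh6 window lies within the GENCODE gene, which starts 320 bases earlier. The CArG motif (1.40%) matched in Myh4 alone of the 8. These matches describe letters and no binding was measured.

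Myh7b, Myh6 and Myh7 each host a muscle microRNA, printed 5′ to 3′ with the seed, bases 2 to 8, in capitals to show which seed each host carries.
miR-499-5p (in Myh7b): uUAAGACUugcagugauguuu
miR-208a-3p (in Myh6): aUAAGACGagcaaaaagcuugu
miR-208b-3p (in Myh7): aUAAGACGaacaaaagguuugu
The 2 miR-208 seeds were the same, UAAGACG, and the miR-499-5p seed was UAAGACU. PolyA RNA does not measure mature microRNAs, so the values below are those of the host messages.

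Read assignment limits how finely the isoforms can be separated, since the messages are alike. The longest protein-coding messages of Myh2 and Myh1 were 89.3% identical, Myh1 and Myh4 88.4% and Myh7 and Myh6 87.4%, while Myh7b was 66.6% to 68.8% identical to the others. Windows of 100 bases that also occur in another gene made up 14.7% of Myh1, 13.9% of Myh7, 11.4% of Myh6, 11.2% of Myh2, 6.61% of Myh8, 3.85% of Myh4, 1.15% of Myh3 and 0 of Myh7b. The handling of multimapping reads was not given in the sources used here, so small differences within the pairs Myh1 and Myh2, and Myh7 and Myh6, are uncertain. Use of strand was not given either, and 9430073C21Rik overlaps Myh2, Myhas overlaps Myh1, Mhrt, Gm29015 and Gm31251 overlap Myh7, Gm49130 overlaps Myh6 and Trpc4ap overlaps Myh7b on the opposite strand.

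In myoblasts, clone 2-7 stood apart: all 8 heavy chains were higher than in the control, by 10.2-fold for Myh7b to 350.2-fold for Myh8, against 53% of all tested genes called in either direction and 26.4% called higher (edgeR quasi-likelihood test, Benjamini-Hochberg adjusted p under 0.05). The median log2 fold change of the 8 was 6.32, beside 0.02 over all genes tested. The Myh8 fold rests on 7, 4 and 1 counts in control myoblasts. In clone 2-4 myoblasts, 3 of the 8 were called, 2 higher and 1 lower, beside 40.4% of all genes called, 20.7% higher and 19.7% lower. In myotubes, all 8 were higher in clone 2-7 than in the control (68% of all genes called in either direction, 31% higher; median 1.55, all genes -0.07), and 5 of 8 were higher in clone 2-4 (57.1% in either direction, 26.2% higher; median 0.86, all genes -0.04). Both clones are set against the same control libraries, so the 2 sets of fold changes are not independent of each other. The signal of the 8 members together made up 0.00575% ± 0.00153 (SD, n = 3) of the counts in control myoblasts, 0.00565% ± 0.00180 in clone 2-4 myoblasts and 0.406% ± 0.0576 in clone 2-7 myoblasts. It was 0.505% ± 0.0583 in control myotubes, 0.916% ± 0.05 in clone 2-4 myotubes and 1.05% ± 0.00135 in clone 2-7 myotubes.

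**Figure D1:**
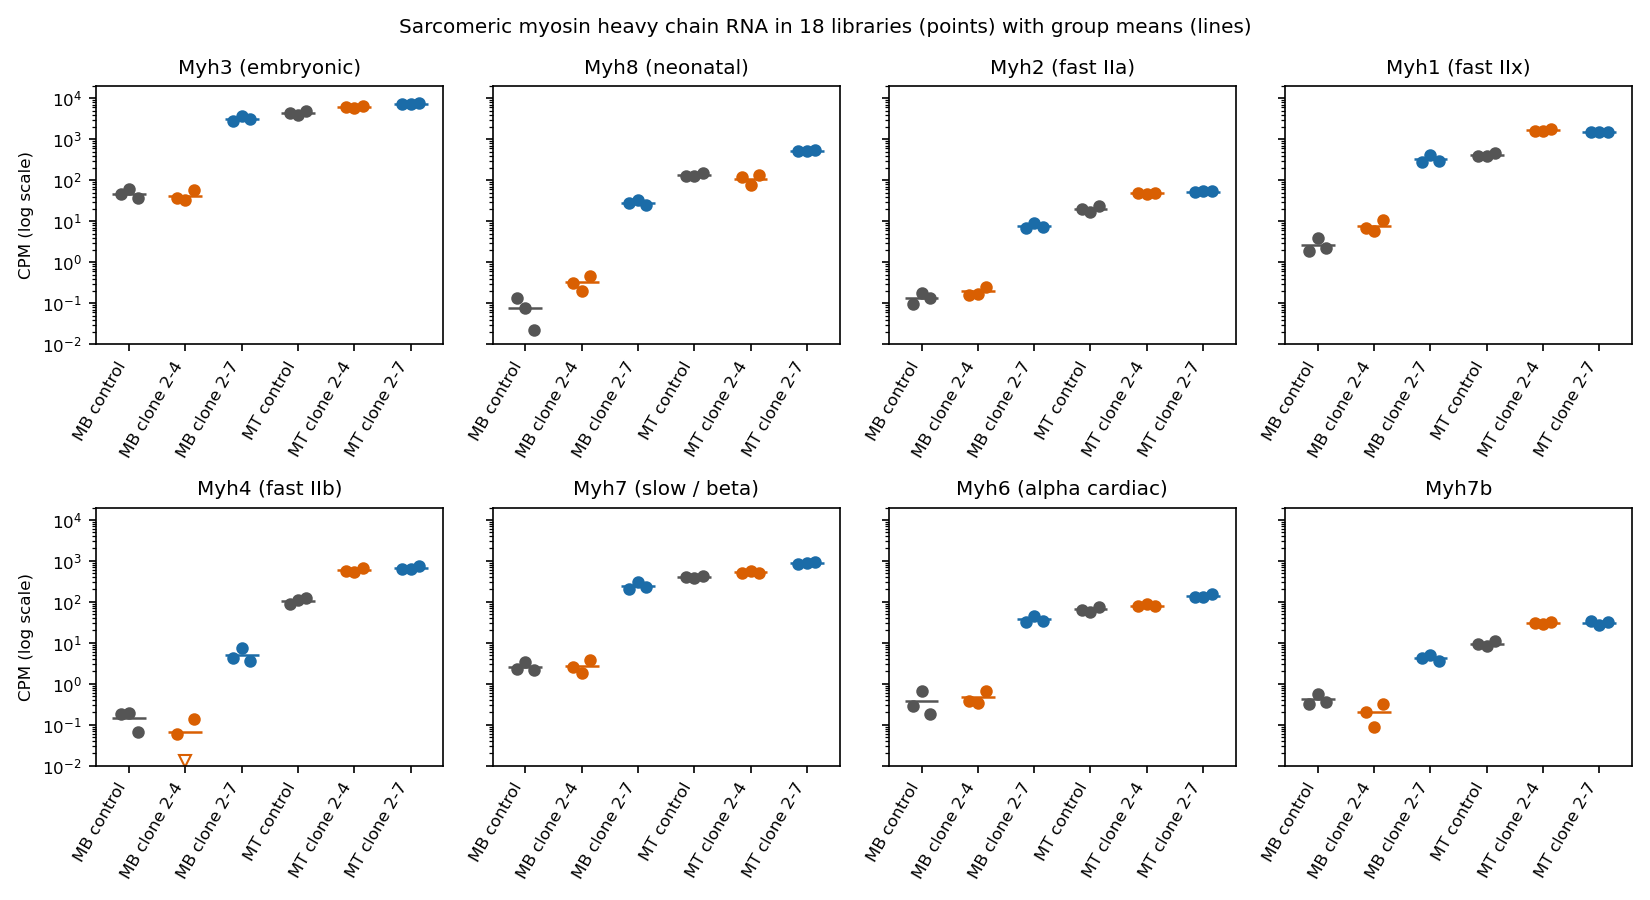
CPM of each heavy chain (log axis) in 18 libraries, 3 points per group with the group mean as a line, for myoblasts (MB) and myotubes (MT) of the control (grey), clone 2-4 (orange) and clone 2-7 (blue). An open triangle at the lower edge marks the 1 library with 0 counts of Myh4. Clone 2-7 myoblasts lie far above the other myoblasts in every panel, and Myh8 is the panel in which clone 2-7 myotubes stand furthest above clone 2-4 myotubes.

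Myh3, the embryonic isoform, was the most abundant of the 8 heavy chains in every group. Its CPM was 45.1, 60.1 and 36.3 in control myoblasts A, B and C, 37.1, 32.8 and 57.7 in clone 2-4 myoblasts, and 2791, 3697 and 3118 in clone 2-7 myoblasts. The control and clone 2-4 libraries interleaved, and the clone 2-7 libraries lay above all of them. The log2 fold change of clone 2-7 over control was 6.08 ± 0.24 (SE; 67.8-fold, adjusted p 9.81e-12), and that of clone 2-4 was -0.15 ± 0.20 (adjusted p 0.587; 95% interval -0.57 to 0.27). In myotubes the CPM was 4316, 3967 and 4947 in the control, 6111, 5721 and 6467 in clone 2-4, and 7297, 7434 and 7668 in clone 2-7. No 2 of these 3 groups overlapped, and their order was control, clone 2-4, clone 2-7. Clone 2-7 exceeded the control by 0.76 ± 0.19 on the log2 scale (adjusted p 0.00248). For clone 2-4 the difference was 0.47 ± 0.19 (adjusted p 0.047), a call at the edge of the threshold: it was lost without a low-count filter (adjusted p 0.107), with a replicate block (0.0558) and without any 1 of 9 libraries (up to 0.146, without control myotube library B).

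Myh8, the neonatal isoform, separated the 2 clones in myotubes. It had 7, 4 and 1 counts in control myoblasts and 16, 9 and 20 in clone 2-4 myoblasts, groups that do not overlap but lie near the limit of detection. Clone 2-7 myoblasts had 1273, 1831 and 1429 counts. The log2 fold change over control was 8.45 ± 0.35 for clone 2-7 (adjusted p 2.34e-11) and 1.98 ± 0.70 for clone 2-4 (adjusted p 0.0335); the latter was not called without a low-count filter (0.0837), nor without any 1 of control myoblast libraries B or C or clone 2-4 myoblast libraries A or C (up to 0.121). In myotubes Myh8 stood at 130, 124 and 153 CPM in the control, 118, 76.3 and 137 in clone 2-4, and 524, 519 and 538 in clone 2-7. Clone 2-4 overlapped the control (log2 fold change -0.30 ± 0.175, adjusted p 0.162; 95% interval -0.67 to 0.08). Clone 2-7 was above both, 3.88-fold over the control (adjusted p 1.46e-07) and 4.77-fold over clone 2-4 (adjusted p 8.61e-08).

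The adult fast isoforms were higher in the myotubes of both clones. Myh1, the most abundant of them, measured 400.0, 399 and 451 CPM in control myotubes, 1560, 1585 and 1813 in clone 2-4 and 1493, 1535 and 1515 in clone 2-7. Both clones lay above the control without overlap. Clone 2-4 also lay above clone 2-7 without overlap, but that difference did not pass the test (log2 0.13 ± 0.21, adjusted p 0.624; 95% interval -0.32 to 0.57). The fold over control was 3.97 in clone 2-4 (adjusted p 1.44e-06) and 3.63 in clone 2-7 (adjusted p 2.26e-06). In myoblasts Myh1 had the smallest adjusted p of the 8 in clone 2-4, at 6.77, 5.76 and 10.8 CPM against 1.85, 3.98 and 2.27 in the control (2.86-fold, adjusted p 0.000327). Clone 2-7 myoblasts reached 276, 405 and 303 CPM, of which library B fell within the range of the control myotubes (121-fold over control myoblasts, adjusted p 3.52e-11).

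Myh4, the isoform of the fastest fibres, had the largest myotube fold changes among the 8. It measured 87.5, 111 and 122 CPM in control myotubes, 576, 521 and 673 in clone 2-4 and 643, 625 and 727 in clone 2-7. Both clones lay well above the control and overlapped each other. The folds were 5.53 in clone 2-4 (adjusted p 1.22e-07) and 6.23 in clone 2-7 (adjusted p 5.02e-08), with a log2 difference between clones of -0.17 ± 0.20 (95% interval -0.61 to 0.26). In myoblasts Myh4 was close to absent outside clone 2-7: 10, 10 and 3 counts in the control and 3, 0 and 6 in clone 2-4, beside 201, 413 and 202 in clone 2-7.

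Myh2 was the least abundant adult fast isoform in myotubes. Its CPM was 19.9, 16.7 and 23.5 in control myotubes, 48.8, 45.2 and 49.2 in clone 2-4 and 50.4, 53.9 and 55.7 in clone 2-7. No 2 groups overlapped, but the clones did not pass the test against each other (log2 difference -0.16 ± 0.12, adjusted p 0.265; 95% interval -0.41 to 0.09). The folds over control were 2.38 (adjusted p 7.18e-08) and 2.66 (adjusted p 1.29e-08). In myoblasts Myh2 had 5, 9 and 6 counts in the control, 8, 8 and 11 in clone 2-4 and 321, 508 and 404 in clone 2-7.

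Myh7, the slow isoform, was higher in clone 2-7 at both stages. Its myotube CPM was 409, 371 and 438 in the control, 503, 560 and 516 in clone 2-4 and 829, 861 and 946 in clone 2-7. The 3 groups did not overlap. Clone 2-7 was 2.16-fold over control (adjusted p 2.3e-05) and 1.67-fold over clone 2-4 (adjusted p 0.00127). The difference of clone 2-4 from control, 0.37 ± 0.16 on the log2 scale, missed the threshold (adjusted p 0.0626; 95% interval 0.03 to 0.72) and passed it in a fit on the compared groups only (0.46, adjusted p 0.00167), under scaling by library totals (0.52, 0.0113), in the DESeq2 Wald test (0.49, 0.0126) and with that tool's size factors (0.49, 0.0184). It also passed without clone 2-4 myotube library C (0.49, adjusted p 0.0266) and without control library B, clone 2-4 library B or C, or clone 2-7 library B of the myoblasts (adjusted p 0.0274 to 0.0468). In myoblasts Myh7 had 121, 172 and 98 counts in the control and 129, 87 and 163 in clone 2-4, which overlapped, and 9662, 16321 and 12679 in clone 2-7 (93.8-fold over control, adjusted p 1.37e-12).

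Myh6, the alpha cardiac isoform, moved with its neighbour Myh7. Its myotube CPM was 64.1, 57.4 and 74.7 in the control, 77.8, 86.9 and 77.0 in clone 2-4 and 128, 132 and 156 in clone 2-7. The groups did not overlap, and clone 2-7 was called against the control (2.12-fold, adjusted p 6.76e-05) and against clone 2-4 (1.72-fold, adjusted p 0.0015). Clone 2-4 against control was not called (log2 0.30 ± 0.18, adjusted p 0.165), but was under library totals (0.45, 0.0425), the DESeq2 Wald test (0.41, 0.03) and the compared groups only (0.39, 0.0149). In myoblasts Myh6 rose from 15, 35 and 8 counts in the control to 1528, 2468 and 1958 in clone 2-7, with 19, 16 and 29 in clone 2-4. Per kb, Myh6 stood at 17.5% to 21.7% of Myh7 in all 6 group means, at 20.6% ± 1.10, 19.6% ± 0.437 and 20.2% ± 0.792 in the myotubes of the control, clone 2-4 and clone 2-7. Part of the 2 messages cannot be told apart by reads (above), and the share of Myh6 reads that belong to Myh7 was not tested.

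Of the cardiac markers, Nppa, Tbx5 and Myl7 had at most 5 counts in any library, while Gata4 (26.6 CPM in control and 68.0 in clone 2-7 myotubes), Nkx2-5 (2.38 and 14.3) and Tnni3 (0.329 and 8.09) were called higher in the myotubes of both clones. Of the 4 markers tested, 4 were higher in clone 2-4 and 3 in clone 2-7 myotubes, beside 26.2% and 31% of all genes called higher. The remaining marker tested, Nppb, was called higher in clone 2-4 and was not called in clone 2-7. The 7 markers summed to 26.5 to 30.9 CPM in control myotubes, 40.0 to 47.8 in clone 2-4 and 83.6 to 99.6 in clone 2-7. Within myotubes this was the order of Myh7 and Myh6. In myoblasts they summed to 35.0 to 37.7 CPM in the control, 41.3 to 47.9 in clone 2-4 and 61.3 to 67.2 in clone 2-7. The sum thus fell on differentiation of the control and overlapped between stages in clone 2-4, while Myh7 and Myh6 rose in both. The part of the markers in the Myh6 and Myh7 differences was not tested.

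Myh7b was the member on which the 2 clones were most alike in myotubes. It measured 9.59, 8.35 and 10.8 CPM in the control, 30.4, 29.4 and 32.8 in clone 2-4 and 34.0, 27.1 and 32.3 in clone 2-7. The clones overlapped each other and lay above the control by 3.22-fold (adjusted p 6.7e-08) and 3.25-fold (adjusted p 5.06e-08), with a log2 difference between them of -0.01 ± 0.16 (adjusted p 0.946; 95% interval -0.345 to 0.316), and the sign of that difference turned under other settings, to 0.08 with library totals. In myoblasts it was the member called lower in clone 2-4, with 10, 4 and 14 counts beside 17, 30 and 16 in the control, which overlap once scaled to CPM (log2 fold change -1.05 ± 0.36, adjusted p 0.0253). That call was lost in a fit on the compared groups only (adjusted p 0.0786), without control myoblast library B (0.156) and without clone 2-4 myoblast libraries A (0.0672) or B (0.128). Clone 2-7 myoblasts had 198, 275 and 202 counts, the smallest rise among the 8 (10.2-fold, adjusted p 8.27e-10).

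**Figure D2:**
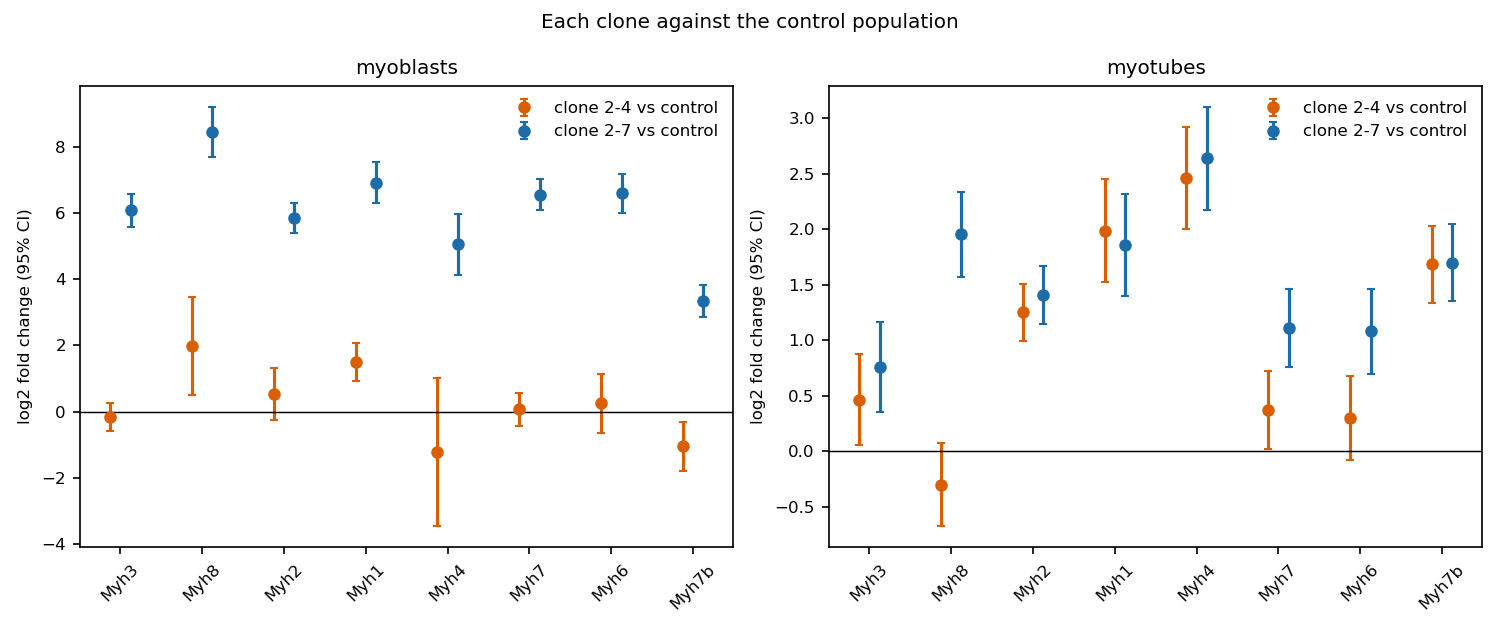
Log2 fold change of each heavy chain in clone 2-4 (orange) and clone 2-7 (blue) against the control, with 95% confidence intervals from the edgeR fit, in myoblasts (left) and myotubes (right, smaller axis). In myotubes the intervals of the clones overlap for Myh3, Myh2, Myh1, Myh4 and Myh7b and lie apart for Myh7, Myh6 and, furthest, Myh8, at -0.30 and 1.95; both contrasts use the same control libraries.

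Set directly against each other, the clones differed in all 8 members as myoblasts, lower in clone 2-4 by 4.40 (Myh7b) to 6.48 (Myh7) on the log2 scale, beside 52.6% of all genes called in either direction and 26.9% called lower. As myotubes they differed in 3 of 8, beside 59.7% of all genes called in either direction and 29.1% called lower: Myh8, Myh7 and Myh6 were lower in clone 2-4. Myh1, Myh2, Myh4, Myh3 and Myh7b did not pass, and of these Myh3 passed in a fit on the compared groups only (log2 -0.28, adjusted p 0.0282).

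Differentiation raised all 8 heavy chains in each line. In the control the log2 rise ran from 4.51 (Myh7b) to 10.69 (Myh8, from 7, 4 and 1 counts in myoblasts). The rise had a median of 7.28 (62.8% of all genes called in either direction, 33.9% higher; all-gene median 0.07). In clone 2-4 it ran from 7.16 (Myh3) to 13.11 (Myh4) with a median of 7.67 (62.8%, 29.8% higher; all genes -0.02), where the Myh4 value rests on the 3, 0 and 6 counts of its myoblasts. In clone 2-7 the rises were smaller, from 1.22 (Myh3) to 7.01 (Myh4), with a median of 2.49 (65.4%, 29.8% higher; all genes -0.08). The test of the difference between responses called all 8 lower in clone 2-7 than in the control, by -1.65 (Myh7b, adjusted p 0.000133) to -6.50 (Myh8, adjusted p 1.47e-08), beside 50.1% of all genes called and 29.9% called lower. The Myh8 difference rests on the same few counts in control myoblasts. The test also called all 8 higher in clone 2-4 than in clone 2-7 (46.7% of all genes called, 24.3% higher). That contrast uses the same clone 2-7 libraries and is not independent of the one against the control.

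Between clone 2-4 and the control, the response differed in 3 of 8 members, beside 39% of all genes called, 16.6% higher and 22.3% lower. Myh7b rose more in clone 2-4 (2.74 ± 0.39 on the log2 scale, adjusted p 1.7e-05), as did Myh4 (3.68 ± 1.06, adjusted p 0.0126), while Myh8 rose less (-2.28 ± 0.72, adjusted p 0.0194). The Myh4 and Myh8 values rest on single-digit to low double-digit counts in myoblasts. The Myh4 call was lost without control myoblast library A (adjusted p 0.0523) or B (0.0536), and the Myh8 call without control myoblast library C (0.0563), clone 2-4 myoblast library C (0.0739) or the low-count filter (0.0549). Myh3 was not called (0.62 ± 0.27, adjusted p 0.0873) but was in the DESeq2 Wald test (0.73, adjusted p 0.0169), with that tool's size factors (0.73, 0.04) and under scaling by library totals (0.81, 0.028).

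Clone 2-7 myoblasts stood at different fractions of the myotube level by isoform. As a share of the mean control myotube CPM, they stood at 78.7% for Myh1, 72.6% for Myh3, 59.97% for Myh7, 57.4% for Myh6, 44.7% for Myh7b, 38.8% for Myh2, 21.1% for Myh8 and 4.82% for Myh4. The range over the 3 myoblast libraries was 66.2% to 97.3% for Myh1 and 3.37% to 7.05% for Myh4, which do not meet. Against their own myotubes the same myoblasts stood at 42.9% for Myh3, 21.7% for Myh1, 5.45% for Myh8 and 0.774% for Myh4. These shares compare different stages, and in the first case different lines, and are given as description.

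**Figure D3:**
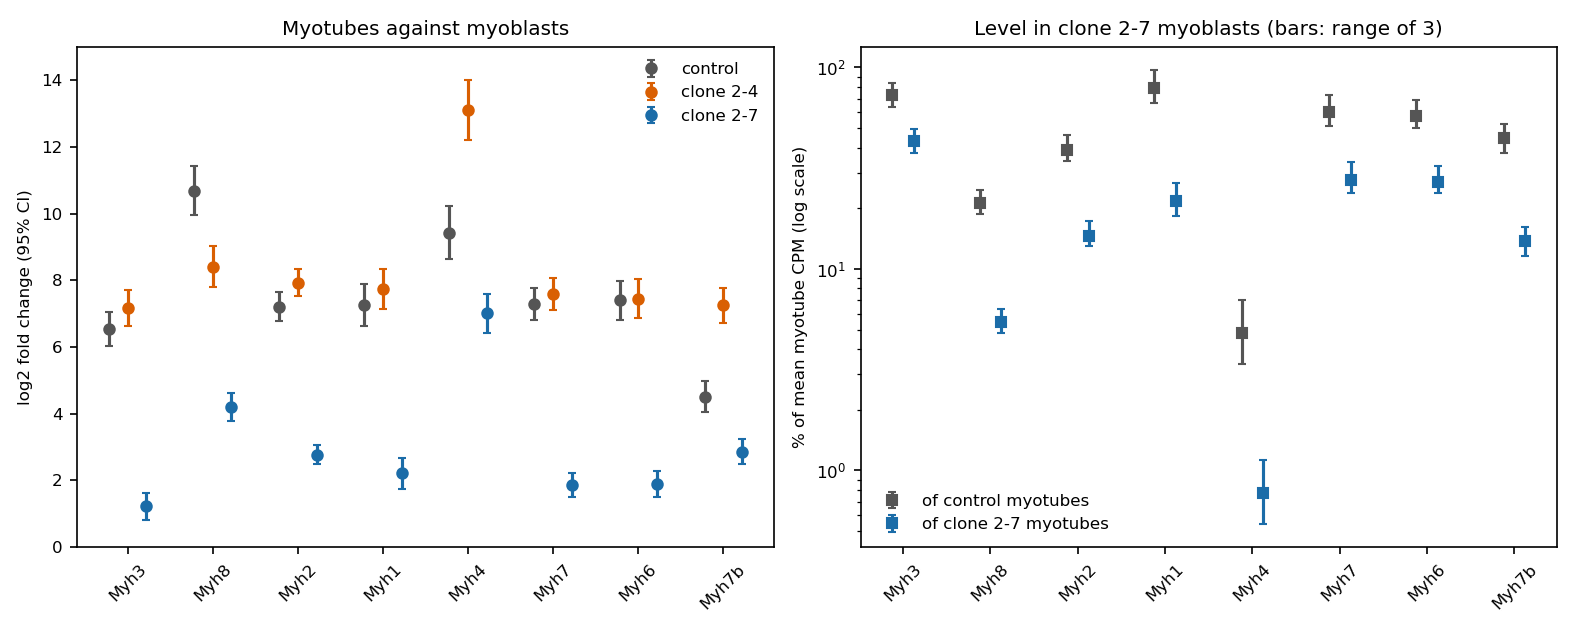
Left, log2 fold change of myotubes over myoblasts with 95% confidence intervals in the control (grey), clone 2-4 (orange) and clone 2-7 (blue); right, clone 2-7 myoblast CPM as a percent (log axis) of mean CPM in control (grey) or clone 2-7 (blue) myotubes, with bars for the range of the 3 myoblast libraries. Clone 2-7 has the smallest response for every member, and its Myh4 is the lowest point of the right panel, at 4.82% and 0.774%.

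Between genes, levels were compared per kb of merged exons. In CPM per kb, Myh3 came first in all 6 groups and Myh1 next. In control myotubes Myh3 stood at 728 ± 82.0, Myh1 at 65.6 ± 4.70, Myh7 at 47.1 ± 3.91, Myh4 at 17.7 ± 2.92, Myh8 at 11.5 ± 1.29, Myh6 at 9.73 ± 1.30, Myh2 at 2.81 ± 0.479 and Myh7b at 1.44 ± 0.185 CPM per kb (mean ± SD, n = 3). Of neighbours in that order, Myh8 and Myh6 overlapped and no others. Myh4 moved ahead of Myh7 in clone 2-4 myotubes, at 98.0 ± 12.8 against 61.1 ± 3.47 CPM per kb without overlap, whereas in clone 2-7 myotubes the 2 overlapped at 111 ± 9.06 and 102 ± 7.06. In control myoblasts Myh1 and Myh7 overlapped, as did each step from Myh7b through Myh6 and Myh4 to Myh2. The Myh8 and Myh7 levels per kb are low by construction. Their merged exons span 11772 and 8616 bases, against 6149 and 6230 in their longest protein-coding messages. The order of Myh4 and Myh7 therefore depends on the length used. In CPM without length, Myh4 (521 to 673) and Myh7 (503 to 560) overlapped in clone 2-4 myotubes. In clone 2-7 myotubes Myh7 (829 to 946) lay above Myh4 (625 to 727). Myh1 (399 to 451) and Myh7 (371 to 438) overlapped in control myotubes.

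As shares of the summed signal per kb, the adult fast isoforms were higher and Myh3 lower in the myotubes than in the myoblasts of each line. Myh3 held 89.8% ± 1.42 of the signal in control myoblasts, 80.6% ± 0.803 in clone 2-4 myoblasts and 85.4% ± 0.758 in clone 2-7 myoblasts. In myotubes it held 82.3% ± 0.566 in the control, 69.0% ± 0.833 in clone 2-4 and 70.0% ± 0.273 in clone 2-7, with the clones overlapping each other and not the control. The adult fast isoforms Myh2, Myh1 and Myh4 together held 9.77% ± 0.580 in control myotubes (9.31% to 10.4%), 24.98% ± 0.884 in clone 2-4 (24.2% to 25.9%) and 20.2% ± 0.0609 in clone 2-7 (20.2% to 20.3%). In myoblasts they held 5.33% ± 1.06, 14.4% ± 0.366 and 8.61% ± 0.516 in the same order of lines. Clone 2-4 therefore had the largest fast share at both stages, although its myoblasts had as little summed RNA of the 8 members as the control.

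Within the fast group, Myh1 took 7.44% ± 0.344, 17.8% ± 0.686 and 13.5% ± 0.370 of the myotube signal in the control, clone 2-4 and clone 2-7, and Myh4 took 2.01% ± 0.306, 6.70% ± 0.442 and 6.27% ± 0.358. The Myh4 shares of the clones overlapped and the Myh1 shares did not. Myh4 was hardly present in myoblasts, at 0.108% to 0.278% of the signal in the 3 group means. Myh7 and Myh6 together held 6.44% ± 0.167, 5.03% ± 0.566 and 6.95% ± 0.325 of the myotube signal, so clone 2-4 had the lowest slow and cardiac share and clone 2-7 the highest. Myh8 took 1.31% ± 0.0191, 0.639% ± 0.147 and 2.54% ± 0.0409. Per kb of the longest message its shares were 2.40%, 1.18% and 4.61%, in the same order of lines.

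The share of 5 members did not overlap between clone 2-4 and control myoblasts, of 5 between clone 2-7 and control myoblasts, of 8 between clone 2-4 and control myotubes and of 7 between clone 2-7 and control myotubes. Two-sided exact permutation tests were run for 72 such comparisons of 3 against 3 libraries, which cannot go below p = 0.1, so none can pass 0.05. Shares sum to 100% and so are not independent of each other. They are defined for the 8 members alone, so no all-gene rate of non-overlap stands beside these counts. The counts are given as description.

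**Figure D4:**
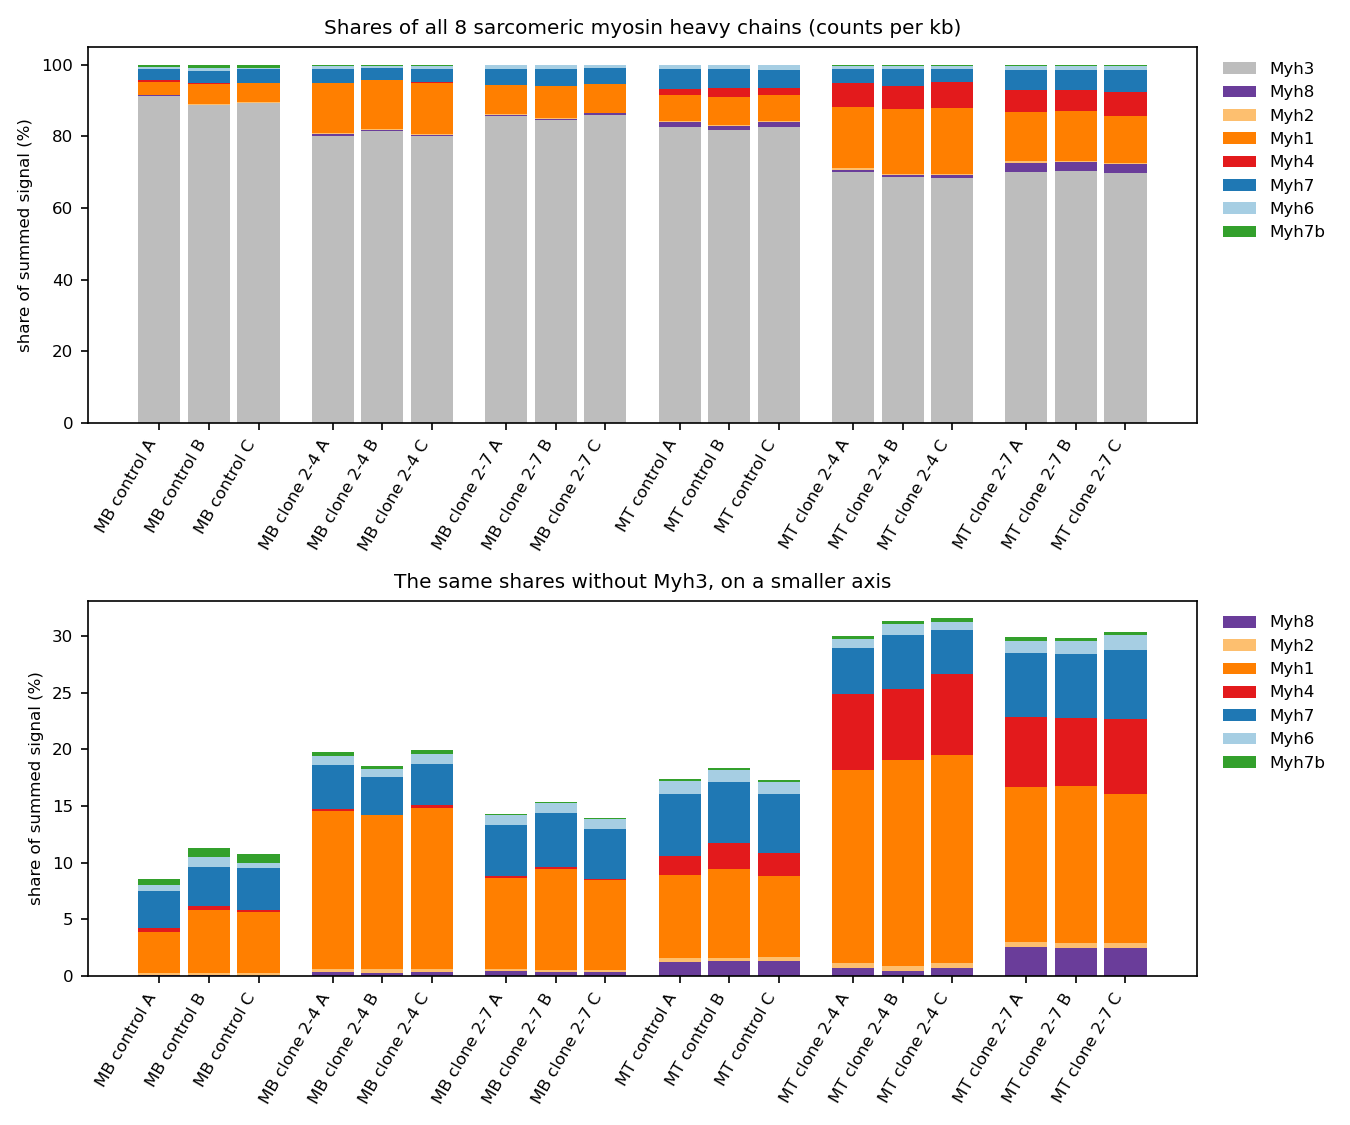
Share of the summed signal per kb (%) taken by each heavy chain, 1 stacked bar per library, with all 8 members (upper panel) and with Myh3 removed to enlarge the others (lower panel, shorter axis). Bars of the clones' myotubes are taller in the lower panel because Myh3 fell to 69.0% and 70.0%, and the Myh4 segment is nearly missing from all myoblast bars.

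Ratios within a library, which do not depend on the scaling between libraries, ordered the lines in the same way. Myh1 per Myh3, per kb, was 9.04% ± 0.482 in control myotubes, 25.8% ± 1.30 in clone 2-4 and 19.3% ± 0.454 in clone 2-7, and 5.40% ± 1.29, 17.3% ± 0.536 and 9.71% ± 0.647 in the myoblasts. No 2 lines overlapped at either stage. Myh8 per Myh3 was 1.59% ± 0.0302, 0.925% ± 0.212 and 3.63% ± 0.0540 in the same myotubes, again without overlap. Myh1 per Myh7 was 139% ± 6.58 in control myotubes, 427% ± 46.6 in clone 2-4 and 234% ± 15.1 in clone 2-7. The size of that ratio depends on the 8616 merged exon bases taken for Myh7, but its order between lines does not.

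On the chromosome 11 cluster, the noncoding neighbours were higher in the myotubes of both clones than in control myotubes, as the fast genes were, and no flanking gene tested was called higher there. 2310065F04Rik, a long noncoding RNA between Myh3 and Myh2 known as linc-MYH, had 28 to 39 counts in control myotubes, 373 to 484 in clone 2-4 and 245 to 300 in clone 2-7, with log2 fold changes of 3.18 (adjusted p 1.13e-08) and 2.94 (2.57e-08). Myhas, which overlaps Myh1 on the other strand, had 26 to 50, 134 to 160 and 54 to 124 counts (1.39, adjusted p 0.00159, and 1.195, adjusted p 0.00468). Myh13, a further heavy chain at the end of the cluster that is known from extraocular muscle, went the other way: 135 to 215 counts in control myotubes, 18 to 24 in clone 2-4 and 33 to 61 in clone 2-7 (log2 fold changes -3.53, adjusted p 1.32e-08, and -1.95, adjusted p 3.76e-06).

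Of the flanking genes, Tmem220 was called in neither clone's myotubes, Adprm was lower in both (-0.56, adjusted p 2.16e-05, and -0.37, adjusted p 0.00102), and Sco1 was lower in clone 2-4 (-0.56, adjusted p 2.67e-05) with no call in clone 2-7 (-0.08, adjusted p 0.431). Gas7, the next tested gene after Myh13, had 1424 to 1931 counts in control myotubes, 0 to 4 in clone 2-4 and 0 to 1 in clone 2-7. In myoblasts it had 181 to 197, 0 to 5 and 0 to 7 counts. Other calls over the control differed in myoblasts. Tmem220 was called higher in clone 2-7 (log2 fold change 1.45, adjusted p 0.000427) and in clone 2-4 (1.09, adjusted p 0.00737). The clones' myoblasts did not pass the test against each other for Tmem220 (-0.36, adjusted p 0.289). Sco1 was called higher in clone 2-7 (1.13, adjusted p 5.61e-09) and not called in clone 2-4 (-0.18, adjusted p 0.133). Myh13 was called higher in clone 2-7 myoblasts, with 3 to 11 counts against 0 to 1. On differentiation of the control, Tmem220, Sco1, Adprm, Myh13 and Gas7 were all called higher in myotubes.

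**Figure D5:**
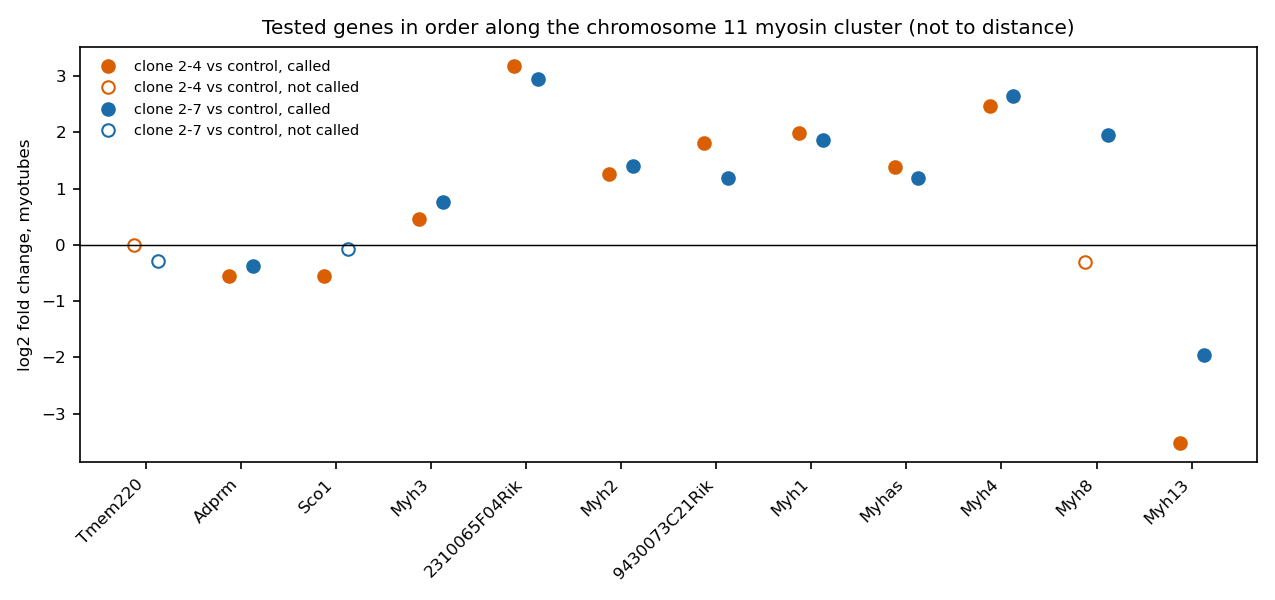
Log2 fold change over control in myotubes of clone 2-4 (orange) and clone 2-7 (blue) for the tested genes of the chromosome 11 cluster in their order along the chromosome, evenly spaced; filled points were called. Gas7, with 0 to 4 counts in the clones, is left out; the points from Myh3 to Myh4 lie above 0 in both clones and Myh13 lies below 0 in both clones, at -3.53 and -1.95.

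Myosin light chains bind the neck of the heavy chain. The 7 genes listed with them include Mylk2, which is a light chain kinase and not a light chain. In myotubes 7 of the 7 were called higher in clone 2-4 (median log2 fold change 1.10) and 6 of 7 in clone 2-7 (median 1.69). Of all genes, 26.2% and 31% were called higher, with all-gene medians of -0.04 and -0.07. Mylpf, the fast regulatory light chain, rose by 1.10 ± 0.20 in clone 2-4 and 1.11 ± 0.20 in clone 2-7, and Myl4, the embryonic and atrial light chain, by 0.89 ± 0.19 and 2.20 ± 0.19. Myl4 was lower in clone 2-4 than in clone 2-7 (-1.31 ± 0.19, adjusted p 2.88e-05), as Myh8 was. Of 15 genes for myosin folding and thick filament assembly, 11 were higher and 1 lower in clone 2-4 myotubes and 13 higher and 1 lower in clone 2-7 myotubes (medians 0.94 and 1.59), beside 26.2% and 31% of all genes called higher and 57.1% and 68% in either direction. Mybph, a myosin-binding protein, was at 0.24 ± 0.22 in clone 2-4 (adjusted p 0.395) and rose by 0.89 ± 0.23 in clone 2-7 (adjusted p 0.00286), and Myom2, a cross-linker of the M-band, rose by 0.57 ± 0.13 and 0.63 ± 0.13. In myoblasts, 13 of 15 were higher in clone 2-7 (median 4.68), beside 26.4% of all genes.

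Among fast fibre proteins, 8 of 8 were higher in the myotubes of each clone (medians 1.54 and 2.02), beside 26.2% and 31% of all genes. Atp2a1, the fast calcium pump, rose by 1.26 ± 0.17 in clone 2-4 and 1.78 ± 0.17 in clone 2-7, and Tnnt3, fast troponin T, by 1.54 ± 0.15 and 1.46 ± 0.15. Among slow fibre proteins, 5 of 7 were higher in clone 2-4 (median 0.91), and 6 of 7 were higher and 1 lower in clone 2-7 (median 1.15), against the same shares of all genes. Tnni1, slow troponin I, rose by 0.91 ± 0.21 and 1.57 ± 0.22, and Tnnc1, slow troponin C, was at 0.18 ± 0.17 in clone 2-4 (adjusted p 0.388) and rose by 0.61 ± 0.17 in clone 2-7 (adjusted p 0.00544). Of 6 other myosin heavy chains, 5 were tested, and 3 were lower and 1 higher in each clone's myotubes, beside 57.1% and 68% of all genes called in either direction. The nonmuscle isoforms Myh9 and Myh10 were lower in both, Myh9 by -0.40 ± 0.06 and -0.78 ± 0.06, as was Myh13 (above). Myh14, a further nonmuscle isoform on the list, was not among those called lower.

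The 29 regulators listed for fibre type were split: 12 were higher and 9 lower in clone 2-4 myotubes, and 12 higher and 12 lower in clone 2-7 myotubes (medians 0.12 and -0.09). Of all genes, 26.2% were called higher and 57.1% in either direction in the first contrast, and 31% and 68% in the second. Those of highest mean CPM were Myog, a driver of myoblast differentiation, at 0.10 ± 0.14 (adjusted p 0.559) and 0.55 ± 0.14 (adjusted p 0.00196), and Nfix, a switch from embryonic to fetal muscle genes, at -0.75 ± 0.06 and -0.81 ± 0.06 (adjusted p 3.6e-09 and 1.08e-09). In myoblasts, 17 were higher and 5 lower in clone 2-7 (median 0.45), beside 26.4% of all genes called higher and 53% in either direction, with Myog at 3.46 ± 0.15 (adjusted p 6.34e-12).

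Among 10614 genes of at least 5 CPM on average, those most like a heavy chain by Pearson's r of log2 CPM over 18 libraries included other sarcomere genes. For Myh1 they were Myom3 (r = 0.999), Casq2 (0.998) and Tnnt3 (0.997), for Myh2 Tnni2 (0.998), Tnnt3 (0.997) and Mypn (0.997), and for Myh4 Dnaja4 (0.994), Casq1 (0.993) and Naca (0.991). Myh8 was most like Cdkn1a (0.992), the cell cycle inhibitor. Between heavy chains, r ran from 0.9375 (Myh3 and Myh4) to 0.9985 (Myh3 and Myh7). These values describe libraries that share the step from myoblast to myotube.

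The scaling between libraries bears on the whole table. The share of higher genes among those called was 45.9% for clone 2-4 against control myotubes and 57.8% with library totals, 54.0% and 38.0% for the control's differentiation, and 45.5% and 34.0% for that of clone 2-7. For the difference in response it was 42.7% for clone 2-4 against control and 53.9% with DESeq2 size factors or 61.0% with library totals, and 40.4% and 52.0% for clone 2-7 against control with DESeq2 size factors. The largest move of the all-gene median was from 0.07 to -0.17 for the control's differentiation and from -0.08 to -0.24 for clone 2-7 with library totals, and from -0.05 to 0.14 for the response of clone 2-4 against control. Among the 8 heavy chains, the calls that other scaling changed were those of Myh7, Myh6 and Myh3 given above.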

How the data were processed

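PolyA RNA of 18 libraries was sequenced. Raw gene counts, as deposited by the authors, were used here; the authors also gave a variance-stabilised table of the same libraries, which was not. Per the submitters' processing notes, the tools were STAR 2.7.9a, featureCounts (Subread 2.0.3), FastQC 0.11.7 and DESeq2 1.32.0 with build mm10. The annotation release, the use of strand and the handling of multimapping reads were not given in the sources used here. Of 55450 genes, 55190 matched a GENCODE M21 symbol by identifier.

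Groups came from the labels. The 17912 genes that passed edgeR's filterByExpr were fitted in 1 quasi-likelihood model of 6 groups (edgeR 4.0.16, limma 3.58.1, R 4.3.3; TMM factors 0.8946 to 1.0843; 12 residual degrees of freedom), with 12 contrasts and Benjamini-Hochberg adjustment over all genes at 0.05. A difference in response is the interaction of stage and line. The script was tested on simulated data. CPM use TMM-scaled library sizes; shares use counts per kb of merged exons. Totals of 41544358 to 79140702 counts set the precision, and members with under about 20 counts in a group are the least precise.

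Alternatives were DESeq2 size factors, library totals, no low-count filter, the DESeq2 1.42.0 Wald test, a replicate block, the compared groups only, each library left out, and other lengths for shares. The genes named are the 8 members, Meg3, Rian and Mirg, list members of highest mean CPM, the 3 genes most like each member (not all are printed) and the neighbours at the loci. Members and lists were chosen with earlier results of these data known. Sequences are RefSeq's for GRCm38.p6.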

Additional observations from a re-analysis of the deposited data

Results flagged for a closer look

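The response to differentiation, the log2 fold change of myotubes over myoblasts, differed between lines by an interaction test for the members below (edgeR quasi-likelihood test, adjusted p under 0.05). Between clone 2-4 and the control it differed for Myh8 by -2.28, for Myh4 by 3.68 and for Myh7b by 2.74. Between clone 2-7 and the control it differed for Myh3 by -5.32, Myh8 by -6.50, Myh2 by -4.44, Myh1 by -5.06, Myh4 by -2.42, Myh7 by -5.44, Myh6 by -5.52 and Myh7b by -1.65. Between clone 2-4 and clone 2-7 it differed for Myh3 by 5.94, Myh8 by 4.21, Myh2 by 5.16, Myh1 by 5.53, Myh4 by 6.10, Myh7 by 5.74, Myh6 by 5.56 and Myh7b by 4.39. Clone 2-7 myoblasts stood 10.2-fold (Myh7b) to 350.2-fold (Myh8) above control myoblasts. The Myh8 values set against the control rest on 7, 4 and 1 counts in its myoblasts. The first 2 sets of response differences share the control libraries. The last set is the first minus the second, so it is not independent of them. Single outlying samples were not tested for, since each group holds 3 libraries.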

How the results depend on the processing

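The number of members called was the same under every alternative, or within 1.5 times, with 1 exception: for clone 2-4 against control myoblasts it was 3 and fell to 1 with the compared groups only, and ranged from 1 to 3 with single libraries left out (1 without control library B or clone 2-4 library A). With single libraries left out it ranged from 4 to 6 for clone 2-4 against control myotubes and from 2 to 3 for its response against the control. No pairing of the libraries by replicate letter was seen: 45 same-letter pairs had correlations of -0.358 to 0.264, with 4 over 0.1. Of 18 libraries, 0 correlated best with their own letter. The labels do not say whether a letter marks a shared batch, and the absence of such correlations cannot exclude one. Over 96 results (8 members in 12 contrasts), a replicate block ended 1 call, that of Myh3 in clone 2-4 against control myotubes (0.47, adjusted p 0.0558). Signs turned for differences near 0 that were not called. Myh7b in clone 2-4 against clone 2-7 myotubes became 0.0845 with library totals, 0.0131 without the filter and 0.0022 with the compared groups only. With single libraries left out, the lowest and highest values in clone 2-4 against control myoblasts were -0.433 and 0.0597 for Myh3, -0.216 and 0.290 for Myh7 and -0.0837 and 0.968 for Myh6; they were -0.105 and 0.0541 for Myh7b between the clones' myotubes and -0.667 and 0.385 for the response of Myh6 in clone 2-4 against the control. The cause was not tested.

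The Myh3 share moved with the length used. In myoblasts of the control, clone 2-4 and clone 2-7 it was 88.1%, 78.5% and 83.1% without length, 86.9%, 76.3% and 81.4% per kb of unique 100-base windows, and 88.3%, 78.7% and 83.3% per kb of the longest transcript, a length chosen after seeing the data. In myotubes it was 79.1%, 66.8% and 66.2%, then 77.4%, 64.4% and 64.1%, then 79.4%, 67.0% and 66.5%, so the order of the clones turned. With single libraries left out the shares in myoblasts were 89.0% to 90.3%, 80.1% to 80.9% and 85.1% to 85.9%, and in myotubes 82.1% to 82.7%, 68.6% to 69.3% and 69.9% to 70.2%. Low counts limit Myh8, Myh2, Myh4, Myh6 and Myh7b in control and clone 2-4 myoblasts.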
